A study of Mus musculus with 10 samples.

Results

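The genes described here encode the machinery that licenses replication origins and turns them into working forks: the 6 subunits of the replicative helicase (Mcm2, Mcm3, Mcm4, Mcm5, Mcm6 and Mcm7), its loaders Cdc6 and Cdt1, and the helicase activators Cdc45 and Gins2. They were taken by symbol from the deposited gene lists, and all 10 were found among the 31053 genes measured in each of 5 droplet single-cell RNA libraries. The labels describe B and T lymphocytes from the spleen, and the libraries also held 569 macrophage- or monocyte-like, 106 dendritic-like, 53 neutrophil-like and 42 erythroid-like cells. BXD2 is a recombinant inbred mouse strain in which germinal centers (GCs) and autoantibodies arise without immunization. The groups were BXD2-p19-/- mice 1 and 2 (female) and 3 (male), and BXD2-WT mice 1 and 2 (both female), with 1 library per mouse. p19 is the subunit particular to the cytokine IL-23 and is encoded by Il23a. All mice shared the BXD2 background and the tissue, and age, sort, capture day and the cells in which the deletion acts are not given in the sources used here. Replicates were separate numbered mice, so a p-value measures the spread between mice, and the male mouse was p19-/-, so sex is in part aligned with genotype.

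Origin licensing is the loading of the Mcm2 to Mcm7 ring onto DNA by the origin recognition complex, Cdc6 and Cdt1, before a cell enters S phase. In S phase, Cdc45 and the GINS complex, of which Gins2 is a subunit, join the ring to form the active helicase, and geminin (Gmnn) binds Cdt1 so that no origin is licensed again in the same cycle. GC B cells divide rapidly in the dark zone. Those selected by follicular helper T (Tfh) cells in the light zone express Myc for a short time before they re-enter the cycle, so licensing genes mark when in the GC reaction cells prepare to replicate.

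In mm10 coordinates the members lie at chr6:88883474-88898780 (Mcm2), chr1:20802966-20820312 (Mcm3), chr16:15623897-15637400 (Mcm4), chr8:75109468-75128439 (Mcm5), chr1:128331575-128359705 (Mcm6) and chr5:138164583-138172111 (Mcm7). Cdc6 lies at chr11:98907709-98923942, Cdt1 at chr8:122568015-122573130, Cdc45 at chr16:18780447-18811972 and Gins2 at chr8:120581266-120589075. Mcm7 overlaps Ap4m1 and hosts Mir25, Mir93 and Mir106b, Cdc45 overlaps Ufd1, and Gins2 overlaps Gse1. Whether the counting used strand is not given in the sources used here, so these 3 levels are less certain.

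After filtering, 9200 cells remained, from 944 to 2729 per mouse, with medians of 3883 to 5224 unique molecular identifiers (UMIs, 1 per captured RNA molecule) per cell. Cell classes came from clusters of marker genes, not from sorted populations, and are called "-like"; the 10 genes, the pathway genes and the cell-cycle lists were left out of the clustering. A marker counted as higher in a cluster at any log2 fold change above 0. GC B-like cells (2871) were higher for all 11 GC B markers such as Bcl6 and S1pr2, or 10 in 1 of their 4 clusters. That cluster, of 441 cells, was led by Myc and passed only when compared with the median cluster, not with all other cells. Mature non-GC B-like (636), plasma-like (227), Tfh-like (1971) and Treg-like cells (943; regulatory T cells, led by Foxp3) were named likewise. An unnamed B cluster of 391 cells, 300 of them from p19-/- mouse 1, was left out. Il23a had 0 UMIs in every named class of both genotypes, so its level checks no label. In all, 45 barcodes of kept cells occurred in more than 1 library.

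GC B-like cells were split by 2 lists that contain none of the 10 genes: 31 S-phase genes such as Pcna and Tyms, and 54 genes of G2 and mitosis such as Mki67 and Ccnb1. Cells at or below the GC B-like mean for both lists were called resting, and the others took the phase of the higher score. This gave 1151 S-phase cells, 980 mitotic cells, 72 resting cells with a Myc UMI (Myc-positive) and 668 resting cells without (Myc-zero). In all, 7.45% of the GC B-like cells lay within 0.05 SD of a limit between calls. Median depth differed between stages, from 10117 to 16739 UMIs per cell over mice in S phase and from 4954 to 8237 in Myc-zero cells, and its part in the results was not tested.

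Many S-phase promoters carry binding words of the E2F factors, so the 250 bases before the RefSeq start (GRCm38.p6, the mm10 build of the files) were read for the 8 members with an entry; Mcm4 and Gins2 were not among them. The words searched on both strands were TTTCCCGC, TTTCGCGC, TTTGCCGC and TTTGGCGC for E2F, CCAAT, and TTTGAA for the cell-cycle homology region. An E2F word stood in 4 of the 8 members (Mcm5, Mcm6, Mcm7 and Cdc6), against 1.86% of 32851 promoters of the same length. A member counted if any of its entries had the word, while the background counts each entry. Mcm7 has another entry (chr5:138171267-138171516, minus strand) with 0 E2F words and 1 CCAAT word. CCAAT stood in 6 (background 33.8%) and TTTGAA in 2, Mcm2 and Cdc45 (background 16.0%). Shown whole are the promoters with the most E2F words (Mcm6, chr1:128359706-128359955, minus strand), with CCAAT words alone (Mcm3, chr1:20820313-20820562, minus strand) and with none of the words (Cdt1, chr8:122567765-122568014, plus strand), each ending just before the annotated gene. Capitals mark the words, on either strand (ATTGG is CCAAT read from the other strand), and in Mcm5 and Mcm6 an E2F word on each strand overlaps in 1 run of 12 bases.
Mcm6: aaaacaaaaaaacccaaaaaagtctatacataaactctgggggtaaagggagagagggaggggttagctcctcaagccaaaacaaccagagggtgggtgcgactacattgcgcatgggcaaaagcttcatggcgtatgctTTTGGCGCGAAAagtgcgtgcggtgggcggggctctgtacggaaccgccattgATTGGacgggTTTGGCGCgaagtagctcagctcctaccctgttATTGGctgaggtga
Mcm3: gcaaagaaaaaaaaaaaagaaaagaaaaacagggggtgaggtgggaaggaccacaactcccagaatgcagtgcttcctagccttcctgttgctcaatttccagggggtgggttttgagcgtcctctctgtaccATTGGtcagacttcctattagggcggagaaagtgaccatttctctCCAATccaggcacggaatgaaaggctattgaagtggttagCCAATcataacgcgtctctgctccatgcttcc
Cdt1: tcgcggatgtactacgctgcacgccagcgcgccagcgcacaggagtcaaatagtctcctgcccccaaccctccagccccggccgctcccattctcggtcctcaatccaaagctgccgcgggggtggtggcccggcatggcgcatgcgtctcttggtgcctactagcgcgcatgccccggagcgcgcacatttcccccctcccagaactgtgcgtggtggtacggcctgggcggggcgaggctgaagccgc
For the other promoters with an E2F word, only the 30 bases around it are given, since RefSeq's start lies within the longest gene model: Mcm5 (chr8:75109347-75109376, plus strand), Mcm7 (chr5:138172030-138172059, minus strand) and Cdc6 (chr11:98908002-98908031, plus strand).
Mcm5: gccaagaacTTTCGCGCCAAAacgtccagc
Mcm7: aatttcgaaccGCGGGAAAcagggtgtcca
Cdc6: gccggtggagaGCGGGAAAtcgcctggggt
A match is a description of these letters and not evidence of binding, and a window without a match says nothing about the factor.

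The first comparison asked how the licensing genes differ between GC B-like cells in S phase and resting Myc-zero cells of the same mice. All 10 were higher in S phase, by 1.89-fold for Cdt1 to 31.0-fold for Cdc6. The helicase activators and Cdc6 differed most, the 6 ring subunits lay between 2.69-fold (Mcm6) and 5.63-fold (Mcm7), and Cdt1 differed least. Summed over the 10 genes, S-phase cells held 2274 and 2445 CPM (UMIs of a gene as counts per 1000000 UMIs of the class) in WT mice 1 and 2 and 1961, 2512 and 2246 in p19-/- mice 1, 2 and 3. Myc-zero cells held 515, 609, 530, 702 and 660 CPM in the same order, so the lowest S-phase value was above the highest Myc-zero value.

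Cdc6, the ATPase that brings the ring to the origin recognition complex, stood at 96.9, 84.6, 72.2, 115 and 95.1 CPM in S phase (WT 1, WT 2, p19-/- 1, 2 and 3) and at 0.677, 1.83, 0, 6.86 and 5.11 CPM in Myc-zero cells. Its log2 fold change was 4.96 ± 0.27 (SE; adjusted p 9.56e-10, edgeR's quasi-likelihood test with Benjamini-Hochberg adjustment, mouse as a block). Cdc45, which the ring needs to unwind DNA, was at 66.7, 72.1, 58.2, 70.9 and 59.1 CPM in S phase and at 5.41, 1.83, 0, 0 and 2.92 CPM in Myc-zero cells (log2 fold change 4.43 ± 0.28, adjusted p 4.99e-09). Both genes were close to undetected in resting GC B-like cells of every mouse and high in S phase of every mouse. Gins2, a subunit of GINS, was at 109.9, 97.3, 82.2, 95.4 and 87.5 CPM in S phase and at 10.2, 12.8, 0, 10.3 and 11.0 CPM in Myc-zero cells (log2 fold change 3.28 ± 0.19, adjusted p 1.80e-09).

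Ring subunits had UMIs in resting cells of every mouse. Mcm6 was at 155.6, 175.5, 161.0, 200.7 and 190.5 CPM in Myc-zero cells and at 441.5, 505.7, 377.8, 537.6 and 462.9 CPM in S phase (log2 fold change 1.43 ± 0.06, adjusted p 1.23e-10). Mcm7 was at 39.9, 56.7, 29.7, 63.5 and 54.8 CPM against 282.8, 306.9, 232.7, 302.3 and 250.2 CPM (log2 fold change 2.49 ± 0.11, adjusted p 6.52e-11). In both genes the stages did not overlap over mice. The other subunits differed by log2 fold changes of 2.38 (Mcm5), 2.02 (Mcm4), 1.88 (Mcm3) and 1.63 (Mcm2). Cdt1, the loader that is destroyed as protein in S phase, was at 46.7, 38.4, 46.6, 42.9 and 48.2 CPM in Myc-zero cells and at 83.9, 87.3, 83.6, 73.8 and 87.1 CPM in S phase, a log2 fold change of 0.92 ± 0.11 (adjusted p 7.70e-06). Its RNA therefore rose, by the least of the 10.

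In total, 10 of 10 members rose from Myc-zero to S phase, against 25.7% of the 7991 genes tested, and their median log2 fold change was 2.20 against -0.03 for all genes tested. The S-phase list and the members belong to the same replication program, so a rise is built in part into how the stage was called. When S phase was called from replication-dependent histone genes instead, 6 of 10 members were higher, their median was 0.42, and Cdt1 stood at -0.14, Mcm6 at -0.01, Mcm2 at 0.13 and Mcm4 at 0.14 without passing the threshold.

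**Figure D1:**
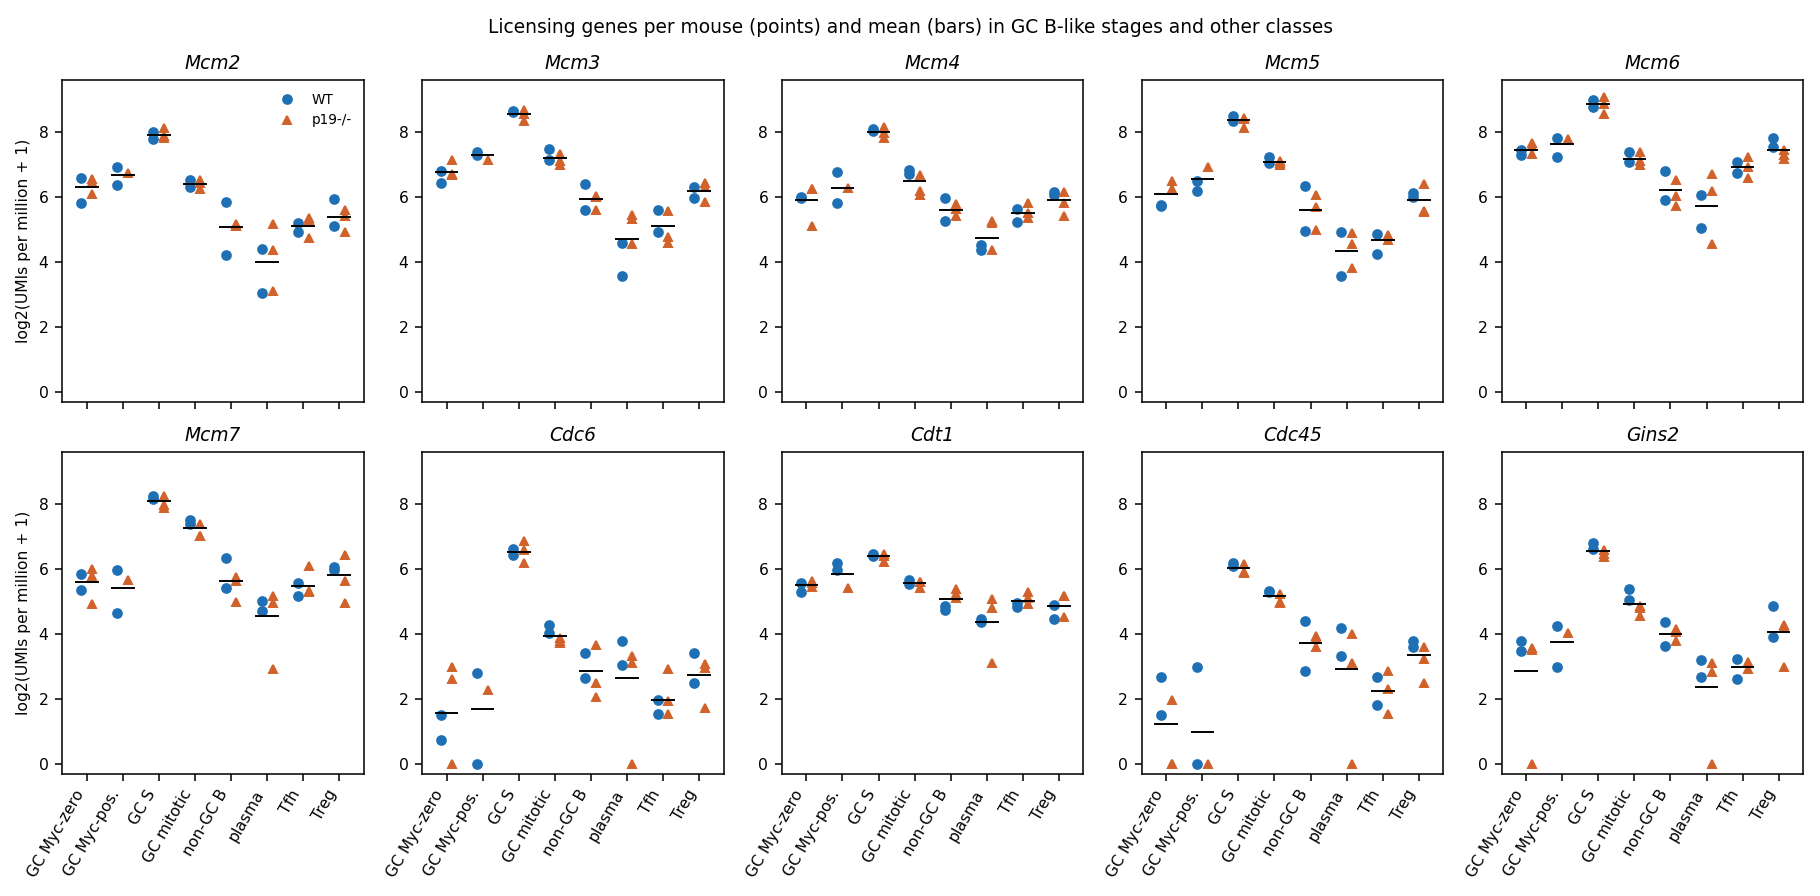
Level of each of the 10 genes as log2(CPM + 1) in 4 stages of GC B-like cells and in mature non-GC B-like, plasma-like, Tfh-like and Treg-like cells. Points are mice (circles WT, triangles p19-/-), bars are means over mice, and Myc-positive resting cells show the 3 mice with at least 10 such cells; every gene is highest in S-phase GC B-like cells, and Cdc6, Cdc45 and Gins2 reach 0 in some mice in resting cells.

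From S phase to the mitotic stage, all 10 genes fell, with Cdc6 falling most and Mcm7, Cdt1 and Cdc45 least. Cdc6 was at 18.4, 15.3, 12.9, 13.7 and 12.1 CPM in mitotic cells (WT 1, WT 2, p19-/- 1, 2 and 3), 6.31-fold below S phase (log2 fold change -2.66 ± 0.11, adjusted p 1.10e-08). Mcm6 was at 133.3, 165.8, 125.1, 166.2 and 138.4 CPM, 3.22-fold below S phase (-1.69 ± 0.04, adjusted p 3.98e-10). Mcm7 was at 167.1, 180.4, 127.6, 166.2 and 130.0 CPM, only 1.80-fold below S phase (-0.85 ± 0.05, adjusted p 1.36e-07). Mitotic and S-phase values of these 3 genes did not overlap, and each was lower in 5 of 5 mice. Cdt1 and Cdc45 fell by 0.88 and 0.91 on the log2 scale, and Mcm2, Mcm3, Mcm4, Mcm5 and Gins2 by 1.31 to 1.65. The 10 of 10 members that fell compare with 16.4% of the 9254 genes tested, and their median was -1.46. A mitotic call needs a mitotic score above the S-phase score, so a fall is built in part into this comparison too. With S phase called from histone genes, Cdc6 stood at -0.18 and Cdt1 at -0.26 and neither passed the threshold.

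In mitotic cells the summed members, at 777 to 1024 CPM over mice, were still above Myc-zero cells, at 515 to 702 CPM. Mcm6 went the other way, with 125.1 to 166.2 CPM in mitotic cells and 155.6 to 200.7 CPM in Myc-zero cells. These stages were not tested against each other.

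Within S phase, cells above and at or below the GC B-like mean of histone RNA were compared, a split added after the data were seen. Cdc45 was at 79.2 ± 9.38 CPM (SD, n = 5 mice) in histone-high and 50.4 ± 10.1 CPM in histone-low cells, a log2 fold change of 0.70 ± 0.11 (adjusted p 0.00108 in edgeR). Mcm7 was also higher, by 0.27 ± 0.06 (adjusted p 0.0130). Cdc6 was lower, at 81.9 ± 19.6 against 104.6 ± 11.5 CPM (log2 fold change -0.35 ± 0.09, adjusted p 0.0310), as was Mcm4 (-0.21 ± 0.06, adjusted p 0.0399). These are 2 members higher, against 5.58% of the 8316 genes tested, and 2 lower, against 3.55%. Of 26 other genes of the pathway, 5 were higher, among them Gmnn (0.45 ± 0.06, adjusted p 0.000272), Ticrr (0.59), Dbf4 (0.56) and Ccne1 (0.55), and 1 was lower, Orc1, a subunit of the origin recognition complex (-1.06 ± 0.21, adjusted p 0.00467). Of the 4 calls, only the one for Cdc45 was kept in every fit that left out 1 mouse. Mcm7 lost its call without WT mouse 1 (adjusted p 0.0670), Mcm4 without any 1 of the 5 mice (0.0586 to 0.217), and Cdc6 without any mouse but p19-/- 2 (0.0813 to 0.134). DESeq2 called 2 members higher and 0 lower, and of all genes called, 61.1% were higher in edgeR and 79.5% in DESeq2. Histone-high cells were deeper (medians of 11708 to 20084 against 8550 to 14690 UMIs per cell), and the part of depth was not tested.

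**Figure D2:**
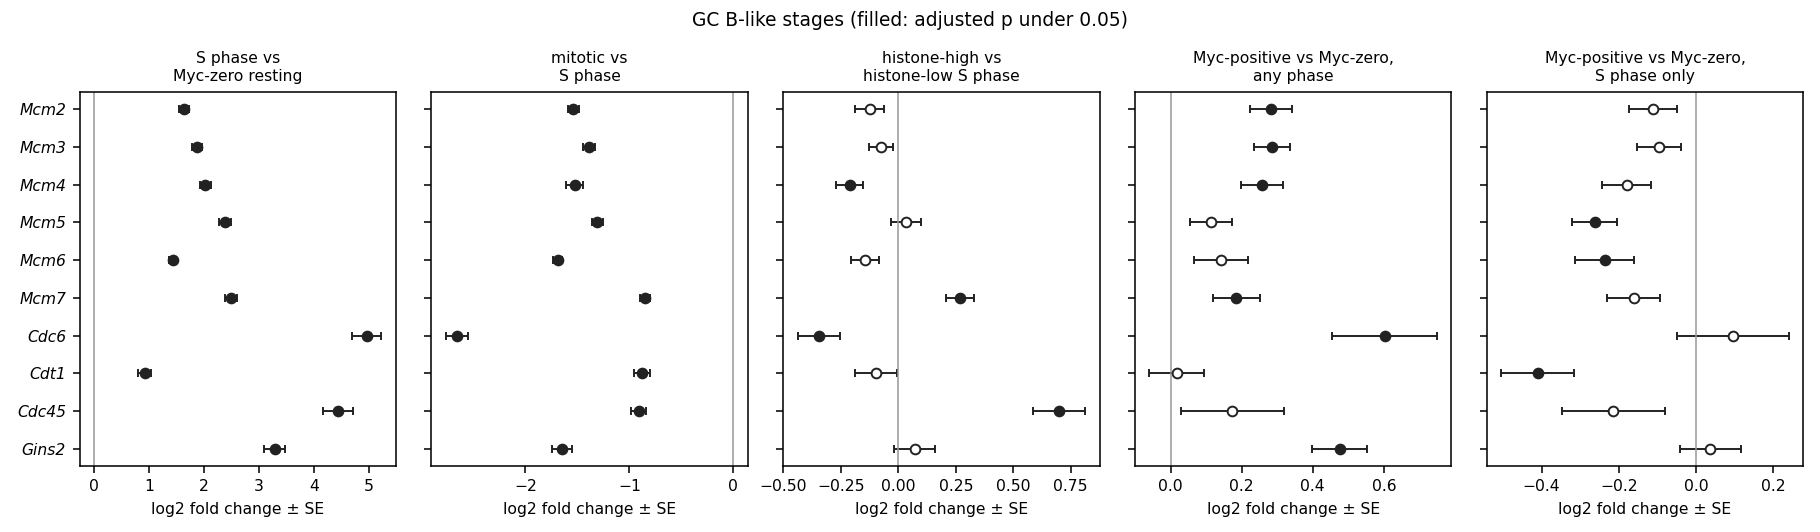
Log2 fold change of each gene (points, with bars of ± 1 SE) in 5 comparisons of GC B-like stages in edgeR; filled points passed an adjusted p of 0.05, and the x axes differ in range. All 10 genes lie above 0 in S phase against Myc-zero cells and below 0 in mitotic against S-phase cells, while the 3 other comparisons show differences under 1 on the log2 scale in both directions.

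Myc is the transcription factor that marks GC B cells chosen to re-enter the cycle. Only WT mouse 1 (21 cells), WT mouse 2 (12) and p19-/- mouse 3 (28) had at least 10 resting Myc-positive cells, so these 3 mice were tested, and 8 and 3 cells of p19-/- mice 1 and 2 were left out. The summed members were at 739, 748 and 777 CPM in Myc-positive cells of those 3 mice and at 515, 609 and 660 CPM in their Myc-zero cells, higher in each mouse. Mcm3 was at 168.3, 157.9 and 141.0 CPM against 85.9, 111.5 and 104.4 CPM (log2 fold change 0.63 ± 0.18, edgeR adjusted p 0.0531), and Mcm5 at 72.1, 89.2 and 121.9 CPM against 52.1, 53.0 and 74.5 CPM (0.65 ± 0.22, adjusted p 0.0914). Both genes were higher in 3 of 3 mice without passing the threshold.

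Of the members, 7 had counts enough to be tested and 0 passed in edgeR, against 9.51% of the 4807 genes tested; Cdc6, Cdc45 and Gins2 could not be tested. At an unadjusted p under 0.05 in edgeR there were 2 (Mcm3 and Mcm5), against 1207 of the 4807 genes tested, and DESeq2 also called 0 members. Mcm3 did pass with cells up to 20% mitochondrial UMIs (adjusted p 0.0273), with doublets kept (0.0299) and without the mouse block (0.0444). Of the 9 pathway genes tested, only Orc6, another subunit of the origin recognition complex, rose (log2 fold change 1.14 ± 0.28, adjusted p 0.0331), while Gmnn was at 0.49 ± 0.31 (adjusted p 0.381). Median depth in the 3 mice was 7728, 10270 and 7882 UMIs per cell in Myc-positive and 4954, 7608 and 6527 in Myc-zero cells. A cell needs a Myc UMI to be counted positive, and why the depths differ was not tested. Light-zone markers such as Cd83 and Cd86 also moved with Myc, with a median of 25.8 UMIs of the list per 10000 in Myc-positive and 7.26 in Myc-zero cells. The part of depth and of zone was not tested.

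When Myc-positive and Myc-zero GC B-like cells of any phase were compared, also added after the data were seen, all 5 mice could be used. Gins2 was at 69.8 ± 9.38 CPM (SD, n = 5 mice) in Myc-positive and 51.2 ± 8.47 CPM in Myc-zero cells (log2 fold change 0.48 ± 0.08, edgeR adjusted p 0.000553), and Cdc6 at 63.6 ± 17.9 and 41.4 ± 12.8 CPM (0.60 ± 0.15, adjusted p 0.00704). Mcm3 (0.29), Mcm2 (0.28), Mcm4 (0.26) and Mcm7 (0.19) were also higher, which makes 6 of 10 members against 20.6% of the 8973 genes tested; Cdt1 was at 0.02 ± 0.08. The groups differed in phase, as 330 of 600 Myc-positive cells (55.0%; 49.6% to 66.7% over mice) and 821 of 2271 Myc-zero cells (36.2%; 28.9% to 42.2%) were called S phase, and the part of this in the result was not tested. Mcm7 lost its call without WT mouse 2 (adjusted p 0.0718), p19-/- mouse 1 (0.0728), mouse 2 (0.1495) or mouse 3 (0.107). Without the mouse block 3 members passed. Of the 26 pathway genes 10 were higher, led by Orc1 (0.97), Mcm10 (0.51) and Ccne2 (0.50), with Gmnn at 0.27 ± 0.06 (adjusted p 0.00298).

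Among cells called S phase alone, no member passed as higher with Myc, with Cdc6 (0.10 ± 0.15) and Gins2 (0.04 ± 0.08) above 0. Cdt1 was lower in Myc-positive cells, at 70.3 ± 10.3 against 94.0 ± 4.15 CPM (log2 fold change -0.41 ± 0.09, edgeR adjusted p 0.0103), as were Mcm5 (-0.26 ± 0.06, adjusted p 0.00818) and Mcm6 (-0.24 ± 0.08, adjusted p 0.0442). These 3 lower members compare with 9.84% of the 7805 genes tested. Mcm6 lost its call without WT mouse 1 (adjusted p 0.0726), WT mouse 2 (0.131), p19-/- mouse 2 (0.144) or p19-/- mouse 3 (0.158). Without p19-/- mouse 2, Mcm7 (-0.22, adjusted p 0.0389) and Cdc45 (-0.37, 0.0398) passed, and without p19-/- mouse 1, Mcm4 did (-0.20, 0.0435). Of the pathway genes, Orc2 was higher (0.33), Topbp1 (-0.37) and Cdk2 (-0.36) were lower, and Gmnn was at -0.05 ± 0.06 (adjusted p 0.603). Myc-positive cells were deeper, with medians over mice of 13158.5 to 23404.5 against 8593 to 14017 UMIs per cell in S phase. Over all phases the medians were 13009 to 23663 against 7218 to 12207, and the part of depth was not tested.

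Across cell classes, GC B-like cells as a whole held the most licensing RNA of the 5 classes compared. The summed members were at 1414, 1657, 1286, 1752 and 1459 CPM in GC B-like cells of WT 1, WT 2, p19-/- 1, 2 and 3, and at 283, 552, 308, 420 and 396 CPM in mature non-GC B-like cells. All 10 members were higher in GC B-like cells, against 25.3% of the 9010 genes tested. Cdc6 differed most (5.77-fold, log2 fold change 2.53 ± 0.23, edgeR adjusted p 4.69e-06) and Cdt1 least (1.72-fold, 0.78 ± 0.13, adjusted p 0.000495). The median over the members was 1.82, and among the ring subunits the log2 fold change ranged from 1.61 (Mcm4) to 2.02 (Mcm2).

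Plasma-like cells, which secrete antibody and mostly no longer divide, held 148, 251, 204, 174 and 338 CPM of the summed members. All 10 were below GC B-like cells, against 23.7% of the 8699 genes tested, with a median log2 fold change of -1.997; the median of all genes tested was itself -0.14. Mcm5 (-2.56 ± 0.18, edgeR adjusted p 1.69e-06) and Mcm3 (-2.54 ± 0.23, adjusted p 9.18e-06) were the furthest below and Cdt1 the nearest (-0.75 ± 0.20, adjusted p 0.0129). Cdt1 lost its call without WT mouse 2 (-0.69, adjusted p 0.0773). Plasma-like cells were few (13 to 77 per mouse), 22.5% of them held UMIs of both T and B lineage markers, and neither was tested as a source of these values.

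Tfh-like cells, which give help to GC B cells, held 292, 386, 292, 348 and 435 CPM of the summed members. All 10 were below GC B-like cells of the same mice, against 38.3% of the 9877 genes tested, with a median log2 fold change of -2.78. Cdc6 was 17.9-fold lower (-4.16 ± 0.20, edgeR adjusted p 1.86e-10), Cdc45 12.6-fold and Mcm5 10.4-fold, whereas Mcm6 was 2.93-fold lower (-1.55 ± 0.08, adjusted p 4.96e-10) and Cdt1 2.41-fold. The classes did not overlap for the summed members, with 435 CPM the highest value in Tfh-like cells and 1286 CPM the lowest in GC B-like cells.

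Treg-like cells held 606, 566, 602, 445 and 450 CPM of the summed members, above the Tfh-like cells of every mouse. Mcm5 was at 68.6, 62.8, 83.0, 46.6 and 45.7 CPM in Treg-like and at 17.8, 27.8, 24.5, 27.5 and 26.7 CPM in Tfh-like cells, with no overlap (2.47-fold lower in Tfh-like cells, log2 fold change -1.30 ± 0.17, edgeR adjusted p 2.91e-05). Mcm3 (-0.97 ± 0.20, adjusted p 0.00150), Mcm6 (-0.55 ± 0.12, adjusted p 0.00238) and Mcm4 (-0.47 ± 0.13, adjusted p 0.0164) were also lower in Tfh-like cells. These are 4 of the 7 members tested, against 12.2% of the 8344 genes tested; Cdt1 was at 0.20 ± 0.17 (adjusted p 0.485). Mcm4 lost its call without WT mouse 1 (adjusted p 0.108) or WT mouse 2 (0.0537), in DESeq2 (0.273), with a mitochondrial limit of 20% (log2 fold change -0.30, adjusted p 0.136), with doublets kept (0.0546) and with cell-cycle genes kept in the clustering (-0.10, 0.756), and Mcm7 passed without p19-/- mouse 3 (-0.63, adjusted p 0.0171).

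By phase call, S-phase cells carried more of the licensing RNA than their share of cells, in the GC and outside it. S-phase cells were 40.1% of GC B-like cells and carried 70.8% of their members' UMIs. Of the UMIs of all genes in GC B-like cells, 36126559, they held 16685930. In Tfh-like cells, 48 of 1971 cells (2.44%; exact binomial 95% interval 1.80% to 3.22%) were called S phase and carried 26.6% of the members' UMIs, and in Treg-like cells 39 of 943 (4.14%; 2.96% to 5.61%) carried 42.2%. Of the UMIs of all genes, these cells held 327936 of 7802747 in Tfh-like and 437172 of 4167658 in Treg-like cells. Cells called neither S phase nor mitotic held 5.61% of the members' UMIs in GC B-like cells, 70.8% in Tfh-like cells (57.0% to 83.7% over mice) and 49.3% in Treg-like cells (36.3% to 82.7%), so most of this RNA in Tfh-like cells was outside the cells called cycling. Pooled over mice, S-phase cells were at 2305 CPM of the summed members in GC B-like, 2226 in Tfh-like, 2146 in Treg-like, 1969 in mature non-GC B-like and 1570 CPM in plasma-like cells. Cells called neither S phase nor mitotic were at 621, 264, 317, 181 and 105 CPM in the same classes. The S-phase cells of these classes lay between 1570 and 2305 CPM, while their share of cells lay between 2.44% and 40.1%, a description of pooled counts without a test. All were picked by the same S-phase list, of the members' replication program, so like levels are in part built into the call. In T cells the calls used the GC B-like limits, and 10.9% of Tfh-like and 15.5% of Treg-like cells held UMIs of both T and B lineage markers, whose part was not tested.

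**Figure D3:**
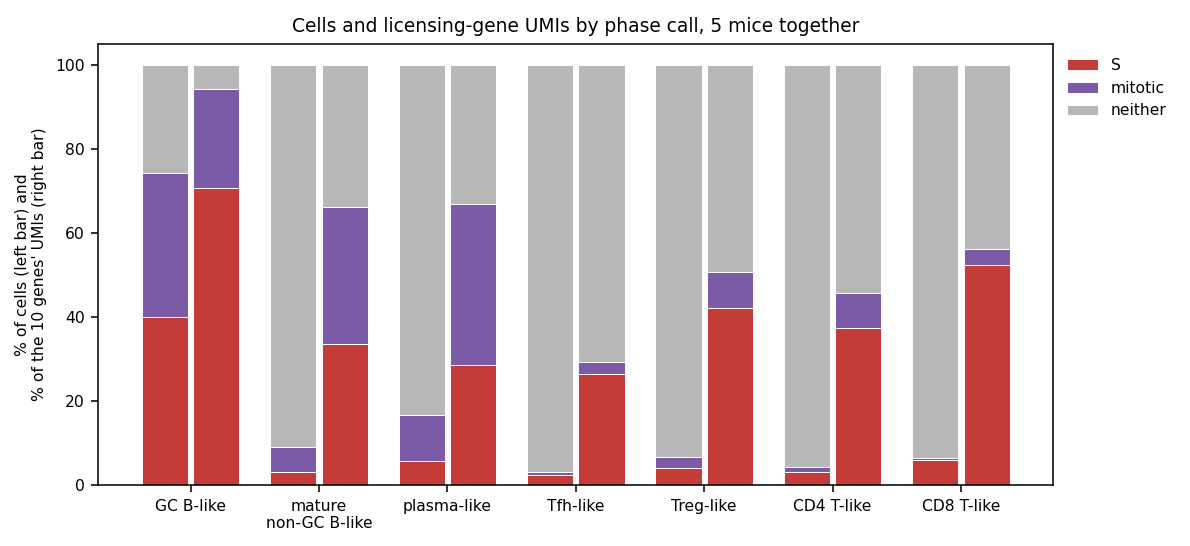
For each class, the left bar gives the percent of cells and the right bar the percent of the 10 genes' UMIs by phase call (S, mitotic, neither), with the 5 mice together. S-phase cells hold 70.8% of the UMIs in GC B-like cells, where they are 40.1% of cells, and 26.6% in Tfh-like cells, where they are 2.44%.

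At a common depth of 2000 UMIs per cell, to which deeper cells were thinned, shallower cells were left out and phases were called again, 96.0% of 1179 S-phase, 69.7% of 966 mitotic and 50.9% of 637 remaining GC B-like cells had a UMI of any member. The share was 35.9% in mature non-GC B-like, 22.3% in plasma-like, 40.5% in Tfh-like and 43.4% in Treg-like cells. It was 22.9% in 231 macrophage- or monocyte-like cells, taken as a reference class and not as a zero. Of all 569 such cells, 12 were called S phase and 10 mitotic, and these held 21.5% and 16.8% of the class's member UMIs. Without thinning, the shares were 99.5% for S phase and 20.9% for the macrophage- or monocyte-like cells, whose median depths were 12335 and 1607 UMIs. Cdc6 was detected in 16.0% of S-phase, 3.52% of mitotic and 0.471% of the remaining GC B-like cells. In macrophage- or monocyte-like cells it was 0.866%, so the last GC B-like value was not above the reference class. Mcm7 was at 7.85% (exact binomial 95% interval 5.88% to 10.2%) of the remaining GC B-like cells against 6.49% (3.68% to 10.5%) of macrophage- or monocyte-like cells. Mcm5 was at 7.54% (5.61% to 9.87%) against 4.33% (2.10% to 7.82%). For Mcm7 and for Mcm5 the intervals of the classes overlapped. These intervals pool the cells of all mice and leave out the spread between mice, and the difference between the classes was not tested. The phase counts of the reference class are for all 569 cells and not for the 231 kept here. Mcm6 was at 24.96% (21.6% to 28.5%) of the remaining GC B-like cells, and Mcm2 at 12.6% (10.1% to 15.4%) against 1.30% (0.269% to 3.75%). Mcm6 was detected in 18.2% of Tfh-like and 23.3% of Treg-like cells, against 4.33% of macrophage- or monocyte-like cells.

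The makeup of the ring RNA differed between stages and classes. Each subunit's share of the UMIs of Mcm2 to Mcm7 was taken per mouse, to be read for 1 gene across classes. The shares of a mouse make up a whole, so a higher share of 1 subunit forces lower shares elsewhere. A higher share can also go with a lower level, as for Mcm6 in Myc-zero against S-phase cells. Mcm6 gave 23.8% ± 0.90 (SD, n = 5 mice) of the ring UMIs in S-phase GC B-like cells, 19.2% ± 1.27 in mitotic and 32.6% ± 1.29 in Myc-zero cells. Its share was 39.9% ± 1.38 in Tfh-like and 37.6% ± 4.13 in Treg-like cells, and 23.4% ± 2.20 in mature non-GC B-like cells. The highest S-phase mouse was at 24.9%, the lowest Myc-zero mouse at 31.3% and the lowest Tfh-like mouse at 38.5%, so these 3 ranges were apart.

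Mcm7 moved the other way, with 14.1% ± 0.67 of ring UMIs in S phase, 20.3% ± 1.21 in mitotic and 8.87% ± 1.62 in Myc-zero cells, and no overlap between any 2 of these stages (13.1% to 14.8%, 18.98% to 22.15% and 6.14% to 10.2%). Mcm5 gave 16.9% ± 0.59 in S phase and 8.26% ± 1.33 in Tfh-like cells. The shares of Mcm2 and Mcm3 differed less between stages, with Mcm3 at 19.5% in S phase, 19.5% in mitotic and 19.9% in Myc-zero cells. These shares are given without a test.

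**Figure D4:**
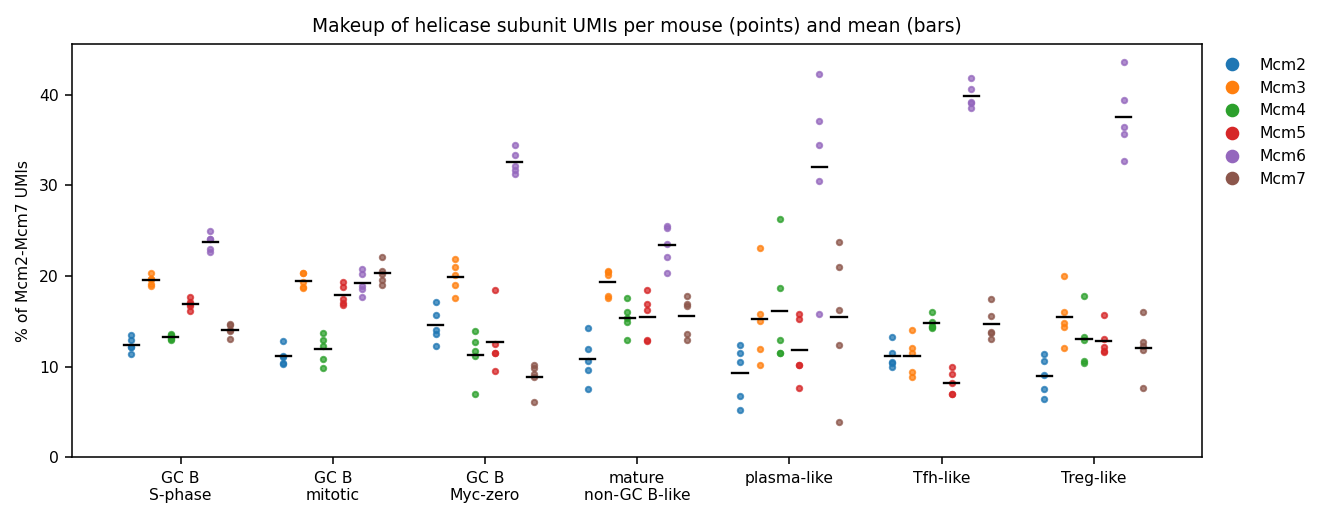
Share of each subunit in the UMIs of Mcm2 to Mcm7, in percent, for 7 stages and classes; points are the 5 mice and bars their means. Mcm6 takes 31.3% to 34.4% in Myc-zero GC B-like cells and 38.5% to 41.9% in Tfh-like cells, above its 22.7% to 24.9% in S phase.

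The other genes of the pathway were read from a list of 26: the origin recognition complex, Gmnn, S-phase kinases and their cyclins, the remaining GINS subunits, firing factors and relatives of the ring. From Myc-zero to S phase, 22 of the 26 rose and 0 fell. Cyclins E1 and E2, which drive entry into S phase, rose by 4.64 ± 0.25 (Ccne1) and 4.47 ± 0.38 (Ccne2) on the log2 scale (edgeR adjusted p 7.86e-10 and 1.11e-07). Recql4, a helicase-like firing factor, had 0 UMIs in Myc-zero cells of all mice and 173 in S-phase cells, at least 14.6-fold higher against a limit of 3 counts over the group. Gmnn rose by 2.53 ± 0.10 (adjusted p 2.11e-11). The 4 that did not pass were Orc3, Orc4, Orc5 and Mcm9, at 0.13, -0.17, 0.21 and 0.24.

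From S phase to the mitotic stage, 19 of 26 pathway genes fell and 1 rose. Ccne2 (-2.62 ± 0.14), Ccne1 (-2.44 ± 0.15) and Orc1 (-1.72 ± 0.21) fell most, and Gmnn fell by 0.85 on the log2 scale (SE 0.05, adjusted p 2.15e-07). Dbf4, the regulatory subunit of the kinase that fires licensed origins, was the 1 that rose (1.18 ± 0.06, edgeR adjusted p 4.21e-08), in 5 of 5 mice. Against mature non-GC B-like cells, 20 pathway genes were higher in GC B-like cells and 0 lower, led by Ccne2 (2.78), Orc1 (2.31) and Recql4 (2.19), with Gmnn at 1.79 ± 0.16 (adjusted p 4.69e-06).

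Plasma-like cells had 17 of the 26 below and 0 above GC B-like cells, the furthest being Recql4 (-2.43), Orc6 (-2.23) and Cdk2 (-1.87), with Gmnn at -1.44 ± 0.19 (edgeR adjusted p 0.000139). Tfh-like cells had 22 below GC B-like cells, led by Recql4 (-4.04), Mcm10 (-4.03) and Ticrr (-3.65), with Gmnn at -2.76 ± 0.15 (adjusted p 6.41e-10). Donson, a firing factor whose gene overlaps Son, was the 1 above (1.14 ± 0.12, adjusted p 9.99e-07). Against Treg-like cells, Mtbp (-0.93), Dbf4 (-0.83), Orc6 (-0.68) and Gmnn (-0.64 ± 0.19, adjusted p 0.0231) were lower in Tfh-like cells, and Gins3 (0.86) and Donson (0.43) were higher, among 16 tested.

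Genes whose level followed the mean of the 10 members across 13 classes and stages were sought among 10949 genes. The 10 non-members with the highest Pearson correlation, on log2(CPM + 1) of means over mice, were Tipin (0.977), Gmnn (0.966), Uhrf1 (0.962), Rfc3 (0.961), Nasp (0.960), Mms22l (0.953), Blm (0.946), Rfc5 (0.942), Dut (0.937) and Smc3 (0.934). Tipin, Uhrf1, Nasp and Blm belong to the S-phase list, and Gmnn to the pathway list. The members' own correlations with the mean ran from 0.965 (Gins2), 0.957 (Mcm4) and 0.949 (Mcm5) down to 0.675 (Cdc45), 0.597 (Cdc6) and 0.566 (Cdt1). These classes share mice and libraries and S-phase GC B-like cells are far above the rest, so the coefficients are descriptive.

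Between genotypes, the question set by the series title is whether the lack of IL-23 changes the GC program. No member passed in the classes with at least 2 mice of each genotype. In GC B-like cells, Gins2 stood at 61.4 and 64.8 CPM in the 2 WT mice and at 48.2, 61.7 and 53.3 CPM in the 3 p19-/- mice (log2 fold change -0.24 ± 0.12, edgeR adjusted p 0.638), and Mcm6 at 266.3 and 327.2 against 241.2, 372.0 and 300.9 CPM (0.02 ± 0.17, adjusted p 0.991). The groups overlapped for both. Over the 10 members, 95% intervals of the log2 fold change in GC B-like cells, from the SE and the fit's degrees of freedom, reached up to 0.56 (Cdc6) and down to -0.52 (Mcm7). In GC B-like cells, 0 of 10 members were called, against 0.0191% of the 10493 genes tested, with 0 at an unadjusted p under 0.05 and 0 in DESeq2.

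In S-phase GC B-like cells 0 of 10 members passed (0.0105% of the 9527 genes tested; 0 at an unadjusted p under 0.05 in edgeR), with log2 fold changes from -0.25 ± 0.12 (Gins2) to 0.03 ± 0.17 (Cdc6). In mitotic cells, too, 0 of 10 passed (0.0529% of 9455), but all 10 lay below 0, with a median of -0.24. At an unadjusted p under 0.05 in edgeR there were 3 members, against 593 of the 9455 genes tested. Without WT mouse 2, 8 of 10 lay below 0. Of these 3, Gins2 was at 32.1 and 40.9 CPM in WT and at 22.6, 28.3 and 27.0 CPM in p19-/- mice (log2 fold change -0.50 ± 0.17, edgeR adjusted p 0.755), and Mcm4 at 103.6 and 113.7 against 66.4, 101.1 and 72.1 CPM (-0.48 ± 0.17, adjusted p 0.756). Mcm7 was at 167.1 and 180.4 against 127.6, 166.2 and 130.0 CPM (-0.33 ± 0.13, edgeR adjusted p 0.772). For Mcm4 and Mcm7, p19-/- mouse 2 came close to the lower WT mouse.

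Resting Myc-positive cells could be compared only between p19-/- mouse 3 and the 2 WT mice, with the lone mouse assumed to vary like the others, so these values are a description of these 3 mice and show neither a difference nor its absence. Of 7 members tested, 0 passed in edgeR (0.873% of 3092 genes), with log2 fold changes from -0.67 ± 0.75 (Cdt1) to 0.61 ± 0.40 (Mcm5), 0 at an unadjusted p under 0.05. With Myc-positive cells of any phase, added after the data were seen, 0 of 10 passed (0.0442% of 9051). Cdc6 had the lowest unadjusted p there and was the 1 under 0.05 (log2 fold change 0.51 ± 0.20, edgeR adjusted p 0.633). Of the 9051 genes tested, 662 were under that limit.

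Outside the GC, 0 of 9 members tested passed in mature non-GC B-like cells (0.0134% of 7488 genes) and 0 of 7 in plasma-like cells (0.124% of 4826), with 0 at an unadjusted p under 0.05 in both. Plasma-like cells were also shallower in p19-/- mice (medians of 4335 to 6426 UMIs per cell, against 9596 to 16913 in WT), and the part of depth was not tested. In Tfh-like cells 0 of 8 passed (0.655% of 9155), with log2 fold changes from -0.26 ± 0.27 (Mcm3) to 0.25 ± 0.23 (Mcm7). In Treg-like cells 0 of 9 passed (0.622% of 8365). Mcm6 was nearest there, at 187.6 and 224.5 CPM in WT and 173.4, 156.0 and 143.9 CPM in p19-/- Treg-like cells (-0.39 ± 0.16, edgeR adjusted p 0.452). It was the 1 member of 9 with an unadjusted p under 0.05, against 741 of the 8365 genes tested. The genotype difference was also tested for a difference between GC B-like and Tfh-like cells, with 0 of 10 members called (0.0558% of 10744) and Mcm7 nearest (interaction 0.51 ± 0.24, adjusted p 0.790). DESeq2 called 0 members in each of these genotype comparisons, and of the pathway genes tested in them edgeR called 0 too.

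**Figure D5:**
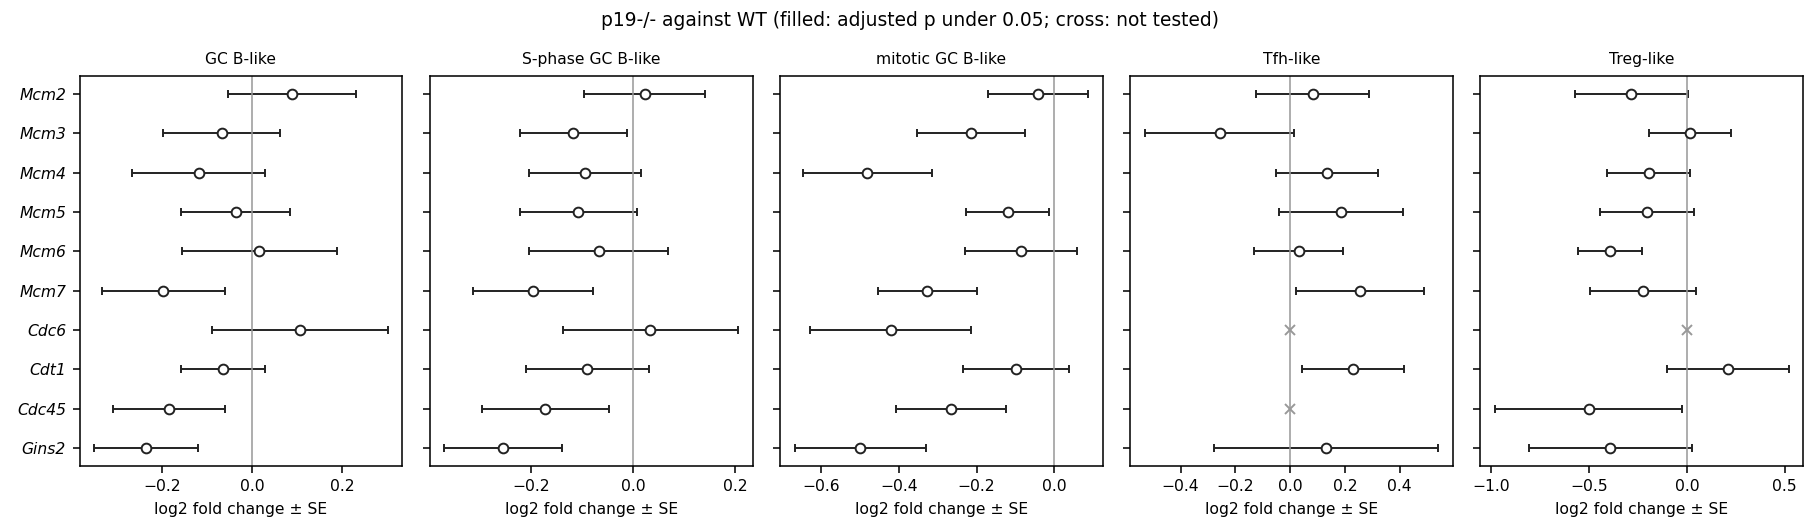
Log2 fold change of p19-/- over WT for each gene (points, with bars of ± 1 SE) in GC B-like cells, their S-phase and mitotic stages, and Tfh-like and Treg-like cells; crosses mark genes not tested, and x axes differ in range. No point is filled, as none passed an adjusted p of 0.05, and in mitotic cells all 10 points lie below 0.

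The share of GC B-like cells called S phase was 36.6% and 44.3% in the 2 WT mice and 38.5%, 42.4% and 41.7% in p19-/- mice 1, 2 and 3. The WT mice lay on both sides of all p19-/- mice. The means were 40.5% ± 5.44 (SD, n = 2) and 40.9% ± 2.08 (n = 3), a difference of 0.408 percentage points with a two-sided exact permutation p of 1.0; the smallest p this design allows is 0.2. The difference ranged from -3.44 points without WT mouse 1 to 4.26 points without WT mouse 2.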

How the data were processed

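Droplet single-cell RNA libraries of 5 mice were used; the B-cell receptor libraries were not analysed here. The deposited files hold whole-number UMI counts per gene and barcode, made by the authors with Cell Ranger 3.0.2 and STAR on mm10, per the submitters' processing notes, with empty barcodes already removed. Of 11355 deposited barcodes, 1907 with over 10% mitochondrial UMIs and those with under 200 genes were left out, then 156 doublets (the highest Scrublet scores at a rate that grows with the cells loaded, since its automatic threshold marked only 28, or 0.299%). Cells were scaled to 10000 UMIs, and 2000 variable genes were reduced to 20 principal components; a graph of 20 neighbours, cut by Leiden at a resolution of 1, had 22 clusters (scanpy 1.11.5, leidenalg 0.10.2), with 858 genes left out, among them the members, pathway and cell-cycle genes.

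Counts were summed per mouse and class (at least 10 cells) and tested with edgeR 4.0.16 in R 4.3.3 (TMM scaling, quasi-likelihood test, Benjamini-Hochberg adjustment over all genes that passed filterByExpr, threshold 0.05). SEs were taken from the fold change and its F statistic, and 95% intervals from the SE and edgeR's total degrees of freedom. Comparisons between classes had the mouse as a block, because both classes came from the same animal, and genotype comparisons had no covariate. DESeq2 1.42.0 was an alternative. The code was tested on simulated data. There were 16 comparisons and 4 added after the data were seen. Named were all 10 members, and of the 26 pathway genes Gmnn and up to 3 called genes per direction by fold change. The 10 genes of like pattern were those with the highest correlation. Members and lists were chosen with earlier results of these data known. Alternatives were other scaling, filters, doublet and mitochondrial limits, thinning, another S-phase call, sex as a covariate, and leaving out each mouse. CPM were computed here from the deposited counts. Binomial intervals are exact (Clopper-Pearson, 95%) and cover counting error only.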

Additional observations from a re-analysis of the deposited data

How the results depend on the processing

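For single genes, 2008 recomputed values kept their side of the threshold, 42 lost the call, 10 gained it and 1 reversed. A reversal was counted only where both values exceeded their SE, so smaller changes of sign stay among the other counts. The reversed value was Cdt1 from Myc-zero to S phase, at -0.14 with S phase called from histone genes. That setting also left 6 of 10 members called in the same comparison. For resting Myc-positive against Myc-zero cells, 0 members became 1 with a mitochondrial limit of 20%, 1 with doublets kept and 1 with no replicate block (Mcm3 each time), and 6 with S phase called from histone genes, where resting cells take in cells otherwise called S phase and 10 members could be tested. Myc-positive against Myc-zero cells of any phase gave 3 members with no replicate block, in place of 6. Histone-high against histone-low S-phase cells gave 2 with DESeq2 and 1 with no replicate block, in place of 4, and 1 to 3 when leaving out 1 mouse. The cause of these changes was not tested.

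Leaving out 1 mouse gave 9 to 10 members for plasma-like cells, 3 to 6 for Tfh-like against Treg-like cells, 5 to 6 for Myc of any phase and 2 to 4 for Myc in S phase, and, apart from the histone split, the same count in the other comparisons where it could be fitted; resting Myc-positive against Myc-zero cells stayed at 0. The genotype difference in S-phase share, 0.408 points, was -0.0384 with a mitochondrial limit of 20%, -0.597 after thinning, -1.24 with histone genes, -1.12 without the cluster led by Myc, and -3.44 to 4.26 when leaving out 1 mouse (-0.354 without p19-/- mouse 2 and -0.0128 without p19-/- mouse 3).

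With the labels' replicate number as a replicate block, 0 members were called in each genotype comparison where it could be fitted. Deviations of same-numbered mice correlated at -0.103 and -0.00826 over 9050 genes. With so few mice of each genotype, these values cannot decide whether the numbers pair the mice. For Myc-positive cells by genotype, the fits with the block, with sex, without the cluster led by Myc and without any 1 mouse were not run, for want of mice. Plasma-like and Myc-positive cells were few, which limits what could be detected there.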
